A study of Mus musculus with 20 samples.

Results

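The amino acid, serine and ATF4 genes of cultured mouse CD8 and CD4 T cells are 46 named genes, taken by symbol from a deposited table of 49671 genes. They fall into 6 roles: ATF4 with related factors and stress response genes, amino acid transporters, serine synthesis enzymes, serine and folate one-carbon enzymes, other enzymes of amino acid metabolism, and cytosolic tRNA synthetases. Names were matched through gene IDs, and all 46 were found. Of these, 44 passed the filter on low counts and were tested. Slc7a11, the cystine and glutamate exchanger, and Cth, which makes cysteine from cystathionine, did not. Summed over the 5 libraries of a group, Slc7a11 had 0 counts at CD8 week 4 and 5 counts at CD8 week 1, and for CD4 cells 0 counts at week 3 and 1 count at week 1. Cth had 1 count at CD8 week 4 and 21 counts at CD8 week 1, and for CD4 cells 2 counts at week 3 and 1 count at week 1.

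Activated T cells take up and make amino acids for protein and nucleotide synthesis, and serine feeds the folate cycle that supplies single carbon units for purines and thymidylate. ATF4 is a transcription factor whose translation increases when eIF2 is phosphorylated, for example when a kinase senses uncharged tRNA, and its known targets include transporters, serine and asparagine synthesis enzymes and many cytosolic tRNA synthetases. It binds as a dimer with C/EBP family proteins to a composite DNA element, whose core is written here as TGATGNAA, N being any base.

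RNA was sequenced from 20 libraries, 5 in each of 4 groups. T cells of mouse spleen and inguinal lymph nodes were activated on plates with antibodies to CD3 and CD28 and 1 ng/mL IL-2, then expanded in IL-7 at 10 ng/mL plus IL-15 at 50 ng/mL. The CD8 week 4 group had 25 days of this expansion, the CD8 week 1 group 4 days, the CD4 week 3 group 18 days and the CD4 week 1 group 4 days. The study set long-term against short-term culture of each cell type. All groups grew in RPMI with serum, nonessential amino acids, 2 mmol/L glutamine and 1 mmol/L pyruvate, and all were sorted as CD44+CD62L+ cells to over 97% before RNA was taken, so only that sorted fraction of each culture was measured. Activation lasted 72 h for polyclonal cells of albino B6 mice and 24 h for transgenic cells of Marilyn-BLITC and MataHari-BLITC mice, and no label ties a library to either source. Whether replicates are separate mice or separate cultures is not labelled, and every p-value therefore reflects spread among these libraries alone, part of which may be technical. CD8 and CD4 libraries have separate ranges of title numbers, and the late CD8 and CD4 groups differ in days of expansion, so lineage, title range and duration cannot be told apart where CD8 is set against CD4.

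Libraries held 13.3 to 28.3 M counted reads. Cd8a ran from 626 to 1549 CPM (read counts scaled to library size) in CD8 week 4 and 755 to 1330 CPM in CD8 week 1 libraries, and Cd4 from 510.2 to 867 CPM in CD4 week 3 and 608 to 899 CPM in CD4 week 1 libraries, while Cd4 was at 0 in all 5 CD8 week 4 libraries. In CD4 libraries the sum of Cd8a and Cd8b1 was 30.7 CPM in week 3 replicate 1, at most 9.37 CPM in the other week 3 libraries and 4.12 to 10.1 CPM at week 1. Erythroid markers, almost all Hba-a1, reached 18.8 CPM in CD4 week 3 replicate 2, against 0.133 to 1.96 CPM in the other week 3 libraries, at most 2.20 CPM in CD4 week 1 and at most 0.0532 CPM in CD8 libraries, and their part in the results was not tested. Summed B cell markers stayed at or under 13.1 CPM in every library, myeloid markers at or under 23.3 CPM, and dendritic cell markers at or under 0.654 CPM. Of the NK cell markers, Eomes, which activated CD8 T cells also express, ran from 188 to 263 CPM in CD8 week 4 and 142 to 346 CPM in CD8 week 1, and Ncr1 was at 0 in 1 CD8 week 4 library and at most 3.6 CPM there. Klrb1c ran from 6.10 to 47.6 CPM in CD8 week 4 and 2.74 to 20.5 CPM in CD8 week 1. It reached at most 0.755 CPM in CD4 week 3 and 0.183 CPM in CD4 week 1. Whether NK cells were part of the CD8 libraries was not tested. Of the stromal markers, Pecam1, also made by T cells, gave 60.2 to 88.2 CPM at week 4 and 67.5 to 105 CPM at week 1 in CD8 cells, and 104 to 188 CPM at week 3 and 156 to 249.6 CPM at week 1 in CD4 cells. Among replicates, CD8 week 1 replicate 3 and CD4 week 3 replicate 2 stood apart from their groups in many members, and values without them are given below. Among the 20 members checked library by library, CD4 week 1 replicate 2 stood apart in Aars, Cars and Atf4. Outside those 20, it held 15.5 CPM of Atf5, where the other CD4 week 1 libraries held 5.25 to 5.93 CPM.

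The promoter sequences of 37 members were available in RefSeq (GRCm38.p6), as 300-base windows of 250 bases before and 50 bases after a gene's start. They are shown because 12 of these 37 members (32.4%) held the core TGATGNAA on either strand, against 4.51% of 27025 genes with a window. The list was chosen to hold ATF4 response genes, so the higher share may follow from that choice and is not a result about them. In the lines below, 28-base stretches are written 5′ to 3′ on the strand on which the core reads TGATGNAA, with the core in capitals.
Asns, chr6:7693215-7693242, minus strand: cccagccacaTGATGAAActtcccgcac
Chac1, chr2:119351039-119351066, minus strand: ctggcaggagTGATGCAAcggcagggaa
Trib3, chr2:152344029-152344056, plus strand: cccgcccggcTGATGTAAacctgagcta
Pycr1, chr11:120643834-120643861, minus strand: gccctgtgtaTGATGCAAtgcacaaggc
Pck2, chr14:55540153-55540180, minus strand: tgtaagatacTGATGTAActttgaaggc
Gars, chr6:55037961-55037988, minus strand: gcccggtgcaTGATGAAAtagcgcagcc
Iars, chr13:49682127-49682154, minus strand: cgtctggaggTGATGCAAtactgacagt
Yars, chr4:129189896-129189923, plus strand: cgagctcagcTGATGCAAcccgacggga
Tars, chr15:11399656-11399683, plus strand: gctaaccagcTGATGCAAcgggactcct
The other 3 members with a core were Slc7a11, Got1 and Aars. At N, the base was C in Chac1, Pycr1, Iars, Yars and Tars, A in Asns and Gars, and T in Trib3 and Pck2. The E-box CACGTG, the site of Myc and related factors, was in 4 of the 37 members (10.8%), Aldh18a1, Aars, Iars and Tars, against 8.09% of genes with a window, and 3 of these 4 also held the TGATGNAA core. No E-box match overlapped a TGATGNAA match in a member. A match describes letters in a window and is not a measured binding site.

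The 250 bases before the start of Asns (chr6:7693210-7693459, minus strand) and of Chac1 (chr2:119350992-119351241, plus strand) are given whole, because these 2 genes with a core were high in CD8 week 1 libraries and low in every other group.
Asns: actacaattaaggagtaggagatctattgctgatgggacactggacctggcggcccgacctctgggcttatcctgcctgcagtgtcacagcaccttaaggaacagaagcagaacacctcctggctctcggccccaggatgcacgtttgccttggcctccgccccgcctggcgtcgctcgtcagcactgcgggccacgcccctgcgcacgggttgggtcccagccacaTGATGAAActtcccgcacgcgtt
Chac1: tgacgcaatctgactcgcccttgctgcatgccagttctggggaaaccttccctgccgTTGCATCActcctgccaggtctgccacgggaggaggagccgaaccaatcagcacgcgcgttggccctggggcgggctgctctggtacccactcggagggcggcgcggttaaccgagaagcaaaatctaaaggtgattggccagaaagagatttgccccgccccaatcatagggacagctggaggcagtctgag
Both are on the gene's own strand. The capitals mark the core, which began 23 bases before the start of Asns, and 193 bases before the start of Chac1, where it lies on the opposite strand and so reads TTGCATCA.

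In CD8 T cells, most of these genes were lower after the long culture. Of 44 members tested, 33 fell at week 4 and 0 rose, with a median log2 fold change of -0.52 (called at a Benjamini-Hochberg adjusted p under 0.05 over all genes, from edgeR's quasi-likelihood fit). Among all 13290 genes tested, 16.4% were called lower and 17.1% higher, and their median was 0.03. Of the 33, 13 fell by at least 2-fold, a size for which the share over all genes was not computed. All 9 tested enzymes of amino acid metabolism fell, as did 11 of 13 tRNA synthetases, 4 of 5 one-carbon enzymes, 2 of 3 serine synthesis enzymes, 3 of 6 transporters and 4 of 8 ATF4 and stress response genes. Within CD8 title range A, with 3 libraries per group, 14 members were called lower, and within range B, with 2 per group, 20. Over all genes, 1067 were called in either direction in range A and 2642 in range B, against 4454 in the full data. In both ranges 40 of 44 members had a negative log2 fold change, with medians of -0.55 in range A and -0.60 in range B. Without CD8 week 1 replicate 3, 34 members were called lower, and 26 without replicates 1 and 2 of CD8 week 4, an alternative added once the data had been seen. Over all genes, 5351 and 4000 were called in these 2 settings.

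**Figure D1:**
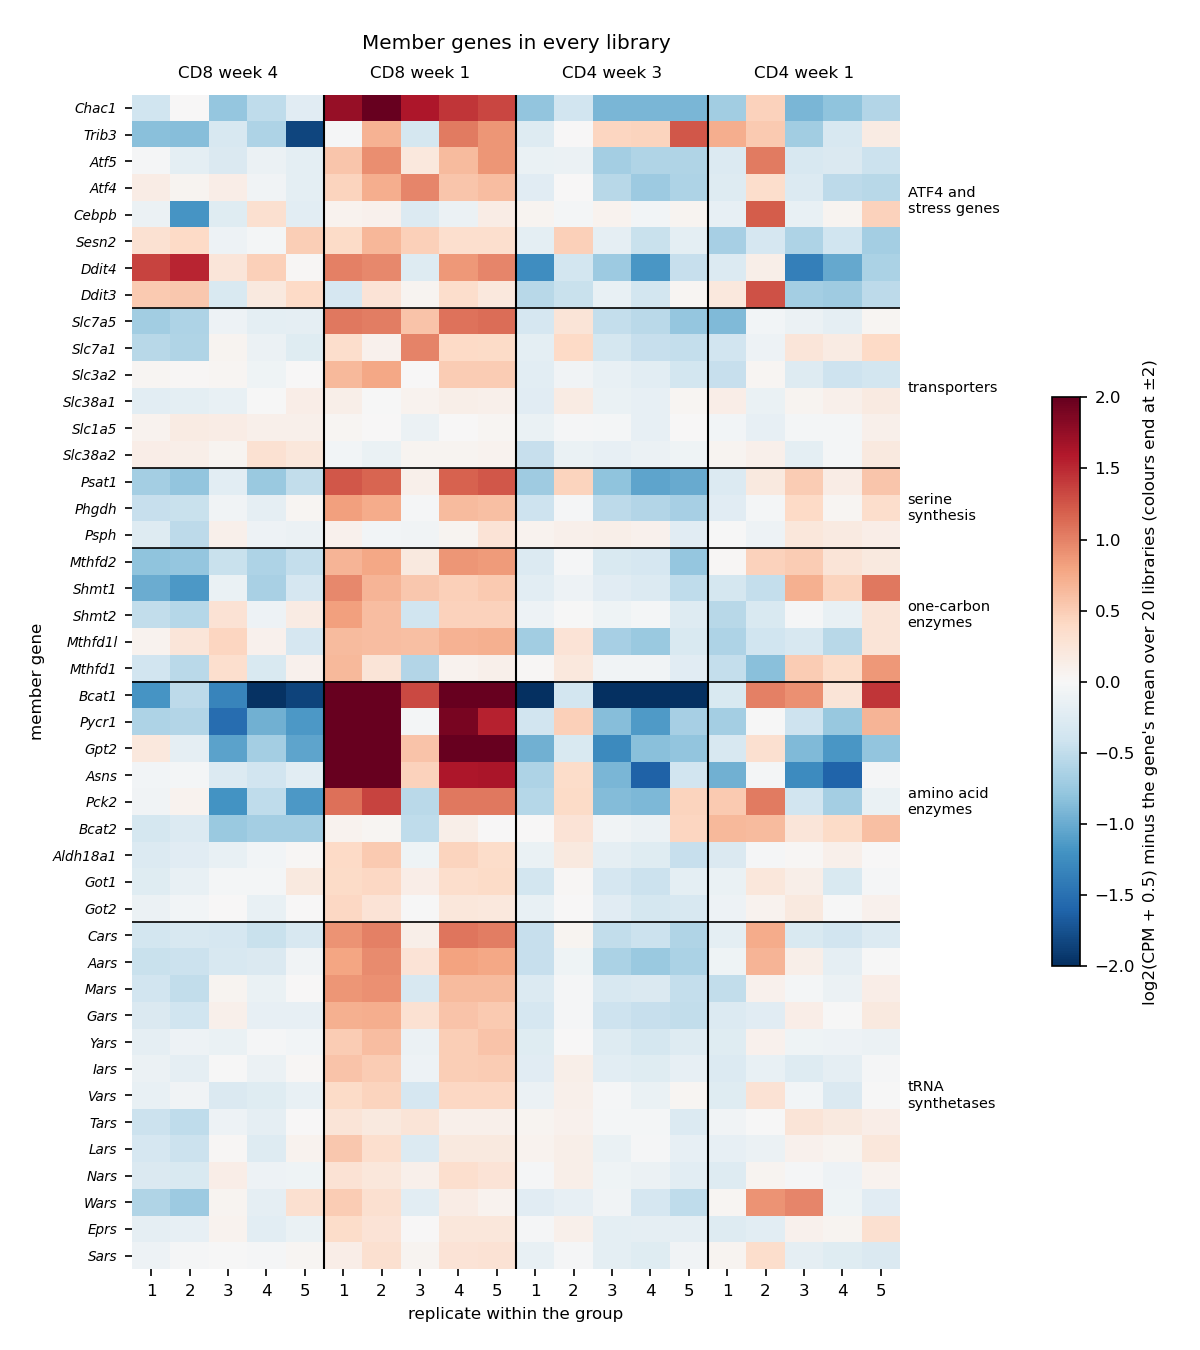
Log2(CPM + 0.5) of the 44 tested members (rows, by role) minus each gene's mean over 20 libraries, in every library (columns, by group and replicate). CD8 week 1 libraries other than replicate 3 are high in most rows, with library medians of 0.48 to 0.62 against 0.06 in replicate 3.

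**Figure D2:**
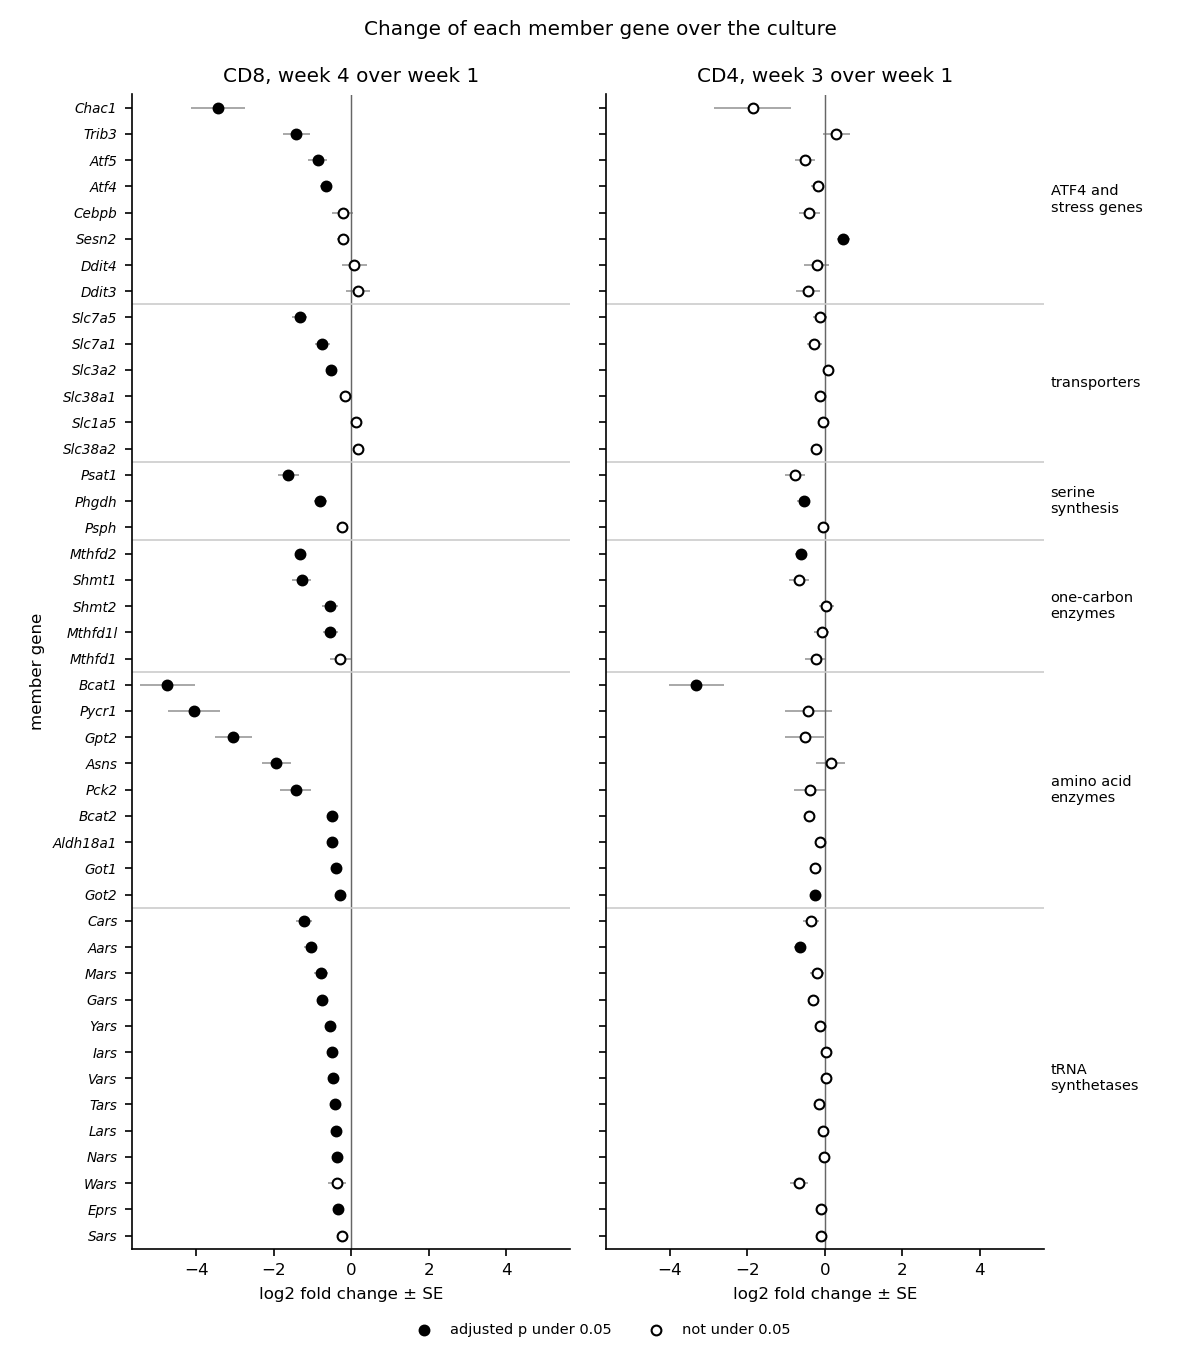
Log2 fold change ± SE of each tested member over the culture, CD8 week 4 over week 1 on the left and CD4 week 3 over week 1 on the right, with filled points where the adjusted p was under 0.05. In CD8 cells 33 of 44 points are filled and lie below 0, and in CD4 cells 5 filled points lie below 0 and 1 above it.

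Atf4 itself fell 1.57-fold in CD8 cells, to 132 ± 12.9 CPM at week 4, against 208 ± 29.9 CPM at week 1 (SD, n = 5 each; log2 fold change -0.65, SE 0.16, adjusted p = 0.00603). Its libraries held 144, 136, 142, 123 and 114 CPM at week 4, against 177, 215, 255, 191 and 200.4 CPM at week 1. The groups did not overlap, and CD8 week 1 replicate 3, low in many members, held the highest Atf4 level. Within title range A the log2 fold change of Atf4 was -0.61 (adjusted p = 0.108) and within range B -0.72 (0.0887), so neither range alone passed the test.

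The other factors and stress genes were mixed, with 3 more that fell and 4 that did not pass. Chac1, which degrades glutathione, fell 10.8-fold to 0.236 ± 0.151 CPM at week 4, against 2.58 ± 0.811 CPM at week 1 (adjusted p = 0.00153), and missed the threshold in range B alone (0.0908). Trib3, a pseudokinase that binds ATF4, fell 2.67-fold, to 8.3 ± 2.93 CPM against 22.1 ± 8.5 CPM (adjusted p = 0.00599). Its libraries held 8.18, 8.05, 11.9, 9.57 and 3.83 CPM at week 4, against 14.8, 24.7, 11.7, 31.2 and 28.2 CPM at week 1, and the groups overlapped through CD8 week 1 replicate 3. In range A alone the log2 fold change of Trib3 was -0.87 (adjusted p = 0.202), and in range B -2.15 (0.0233). Atf5, a factor related to ATF4, fell 1.83-fold (adjusted p = 0.0146), and passed in neither title range alone (0.178 in range A and 0.146 in range B). Ddit3, which encodes the factor CHOP, did not pass the test (log2 fold change 0.17, adjusted p = 0.702), at 21.2 ± 4.66 CPM at week 4 and 18.9 ± 3.35 CPM at week 1. Its libraries held 24.9, 25.1, 13.8, 19.8 and 22.6 CPM at week 4, against 13.5, 20.7, 17.9, 22.1 and 19.9 CPM at week 1, and the groups overlapped. Cebpb, a C/EBP factor, and Sesn2, a leucine sensor that restrains mTORC1, had log2 fold changes of -0.22 and -0.21 and did not pass the test. Ddit4, another inhibitor of mTORC1, was uneven within both groups, with 449.5, 504, 208, 243 and 177 CPM at week 4 and 352, 341, 146, 319 and 345 CPM at week 1. CD8 week 4 replicates 1 and 2 held the highest Ddit4 levels and CD8 week 1 replicate 3 the lowest, and the log2 fold change of 0.07 did not pass the test. Its direction was not stable, at 0.47 in range A and -0.66 in range B, -0.52 when replicates 1 and 2 of week 4 were left out and -0.10 without week 1 replicate 3, none of which passed.

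Among transporters, both chains of the large neutral amino acid transporter fell in CD8 cells. Slc7a5, the light chain that carries leucine and related amino acids, fell 2.50-fold to 89.4 ± 16.6 CPM at week 4, against 224 ± 31.3 CPM at week 1 (SD, n = 5 each; adjusted p = 0.000138). Its libraries held 69.4, 73.5, 105, 99.1 and 100.0 CPM at week 4, against 234, 229, 169, 241 and 245 CPM at week 1. The groups did not overlap, and the lowest week 1 library was replicate 3. Slc3a2, the CD98 heavy chain that partners with Slc7a5, fell by 0.51 on the log2 scale (adjusted p = 0.00295, 0.0809 in range A alone), with 110.4, 109, 111, 101 and 109 CPM at week 4 and 169.6, 185, 109, 154 and 153 CPM at week 1. Week 1 replicate 3 lay among the week 4 libraries and the others lay above them. Slc7a1, the carrier of arginine and lysine, fell 1.68-fold (adjusted p = 0.00766). It passed in neither title range alone (adjusted p = 0.0713 in range A and 0.155 in range B), and not when replicates 1 and 2 of CD8 week 4 were left out (0.0612). The glutamine carriers Slc1a5, Slc38a1 and Slc38a2 did not pass the test, with log2 fold changes of 0.12, -0.16 and 0.17.

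The serine pathway was lower at its first 2 steps. Psat1, the aminotransferase of the second step, fell 3.07-fold in CD8 cells (SE 0.27 on the log2 scale, adjusted p = 0.00042). Its libraries held 64.6, 60.2, 89.5, 61.9 and 73.5 CPM at week 4, against 248, 233, 112, 235 and 246 CPM at week 1. The groups did not overlap, and week 1 replicate 3 lay far below the other week 1 libraries. Phgdh, the dehydrogenase of the first step, fell 1.74-fold (adjusted p = 0.00161), with 73.7, 74.6, 97.1, 89.3 and 105 CPM at week 4 and 179.6, 171, 100.3, 158 and 155 CPM at week 1. The groups overlapped only through week 1 replicate 3. Psph, the phosphatase of the last step, did not pass the test, at 34.3 ± 5.44 CPM at week 4 and 40.3 ± 4.06 CPM at week 1 (log2 fold change -0.23, adjusted p = 0.103).

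Of the one-carbon enzymes, Mthfd2, the mitochondrial methylenetetrahydrofolate dehydrogenase, had the smallest adjusted p of all members in CD8 cells (9.55e-06) and fell 2.50-fold. Its libraries held 49.9, 51.4, 64.6, 57.3 and 62.8 CPM at week 4, against 141, 150.5, 101, 163 and 159 CPM at week 1, with no overlap. Shmt1, the cytosolic serine hydroxymethyltransferase, fell 2.43-fold to 15.2 ± 4.58 CPM against 36.8 ± 5.42 CPM (adjusted p = 0.00132), and passed in range A (0.0282) but not in range B alone (0.0911). Shmt2, its mitochondrial counterpart, fell 1.47-fold (adjusted p = 0.0386), and Mthfd1l, which releases formate in mitochondria, fell 1.45-fold (0.0366). These calls were weak, since each was lost in either title range alone, when replicates 1 and 2 of CD8 week 4 were left out (0.251 for Shmt2 and 0.0789 for Mthfd1l), and with several single libraries left out. Mthfd1, the cytosolic enzyme of the same cycle, did not pass the test (log2 fold change -0.28, adjusted p = 0.447).

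**Figure D3:**
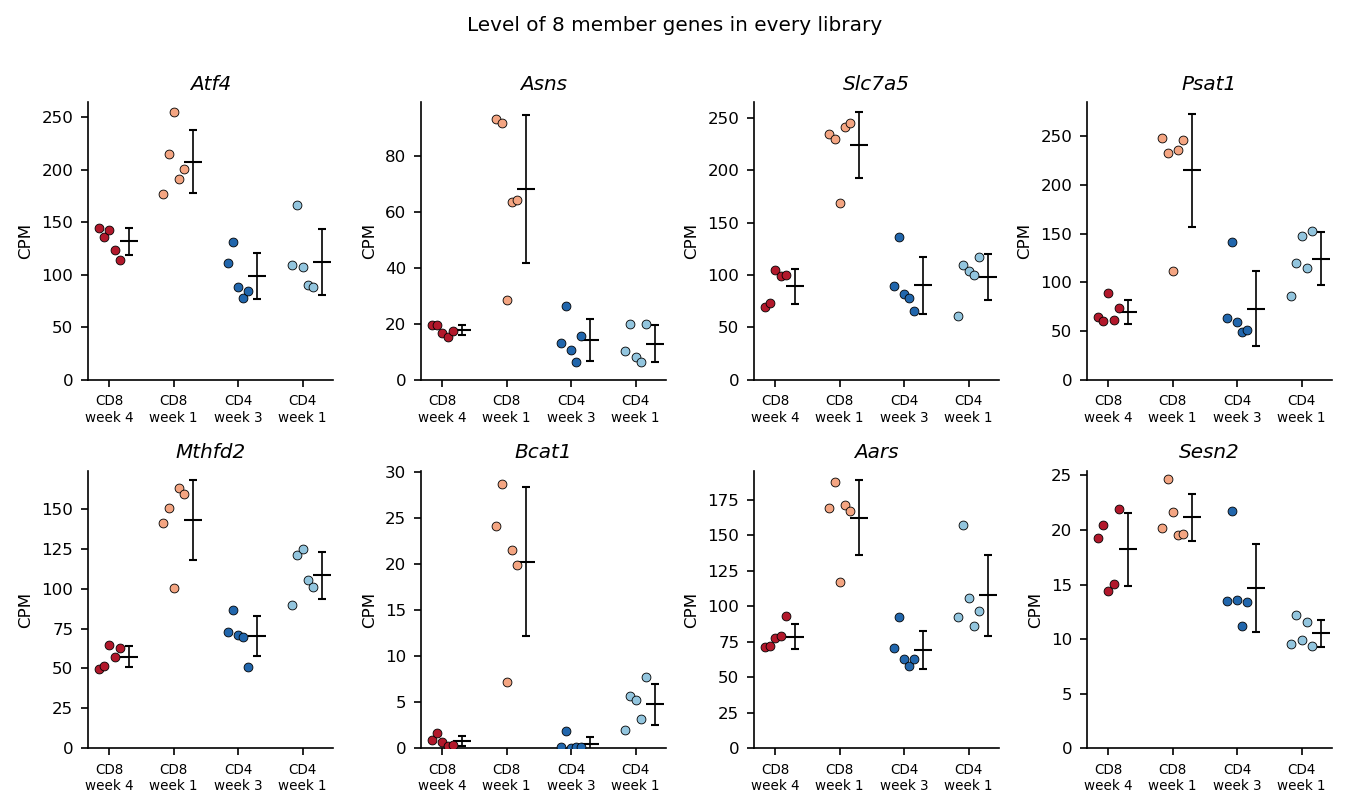
CPM of 8 members in every library (points) with the mean and SD of each group of 5 libraries beside them, on linear axes from 0. All 8 genes (Atf4, Asns, Slc7a5, Psat1, Mthfd2, Bcat1, Aars and Sesn2) have their highest group mean in CD8 week 1, and in Asns the CD8 week 1 libraries run from 28.5 to 93.5 CPM, above every other library.

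The enzymes of amino acid metabolism held the largest falls. Bcat1, the cytosolic aminotransferase of leucine, isoleucine and valine, fell 26.8-fold in CD8 cells, to 0.857, 1.63, 0.725, 0.281 and 0.348 CPM at week 4, against 24.1, 28.7, 7.15, 21.5 and 19.9 CPM at week 1 (adjusted p = 0.000172). The groups did not overlap, and 4 of the 5 week 1 libraries held 19.9 CPM or more. With week 4 levels near 0 the size of the fall is uncertain: the log2 fold change was -4.74 over all libraries, -4.23 in range A, -6.02 in range B and -5.51 when replicates 1 and 2 of week 4 were left out. Pycr1, the last enzyme of proline synthesis in mitochondria, fell 16.7-fold to 0.338 ± 0.216 CPM, against 5.78 ± 3.63 CPM, and Gpt2, the mitochondrial alanine aminotransferase, fell 8.22-fold to 0.972 ± 0.598 CPM, against 8.09 ± 3.19 CPM. In both genes CD8 week 1 replicate 3 held the lowest week 1 value, at 1.05 CPM in Pycr1 and 2.52 CPM in Gpt2, and still lay above every week 4 library.

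Asns, asparagine synthetase and a much used marker of ATF4 activity, fell 3.82-fold in CD8 cells (log2 fold change -1.93, SE 0.38, adjusted p = 0.00117). Its libraries held 19.8, 19.8, 16.8, 15.5 and 17.7 CPM at week 4, against 93.5, 92, 28.5, 63.7 and 64.4 CPM at week 1. The groups did not overlap, and within week 1 the levels split into replicates 1 and 2, replicates 4 and 5, and a low replicate 3. Pck2, the mitochondrial phosphoenolpyruvate carboxykinase, fell 2.70-fold (adjusted p = 0.0113), and the call was lost in range A alone (0.197). Bcat2, the mitochondrial counterpart of Bcat1, fell 1.41-fold (adjusted p = 0.00964, 0.256 in range A alone), with 42.5, 44.8, 32.5, 33.9 and 33.9 CPM at week 4 and 57.4, 56, 38, 58.8 and 54.7 CPM at week 1. Week 1 replicate 3 again lay among the week 4 libraries. Aldh18a1, which starts proline synthesis, and Got1 and Got2, the cytosolic and mitochondrial aspartate aminotransferases, fell 1.40-, 1.31- and 1.22-fold. Each of these 3 small falls was lost in both title ranges taken alone.

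Of the 13 cytosolic tRNA synthetases tested, the cysteine, alanine, methionine and glycine enzymes fell most in CD8 cells. Cars fell 2.35-fold (adjusted p = 0.000439), with 26.1, 27, 26.6, 24.6 and 26.9 CPM at week 4, against 63.3, 67.9, 36.5, 71.2 and 68.8 CPM at week 1. Aars fell 2.07-fold (adjusted p = 0.00022), with 71.2, 71.9, 77.9, 79.5 and 92.9 CPM at week 4, against 169, 187, 118, 171 and 167 CPM at week 1. Gars fell 1.68-fold (adjusted p = 0.000268), with 137, 126, 178, 149 and 149 CPM at week 4, against 274, 275, 205, 247 and 240.2 CPM at week 1. None of these 3 genes overlapped between the groups, and replicate 3 held the lowest week 1 value of each. Mars fell 1.72-fold (adjusted p = 0.00372, 0.0584 in range A alone), although its 3′ end overlaps Ddit3 on the other strand, and the counting was by strand. Iars fell 1.41-fold (adjusted p = 0.002, 0.0675 in range A alone), with 108, 104, 117, 109 and 119 CPM at week 4 and 175, 168, 110.1, 165 and 167 CPM at week 1, overlapping through week 1 replicate 3. Nars, Yars, Eprs, Lars, Tars and Vars fell 1.27- to 1.46-fold. Eprs passed in neither title range alone (adjusted p = 0.189 in range A and 0.106 in range B), nor did Lars (0.109 and 0.18). Nars, Yars and Vars missed the threshold in range A alone and Tars in range B alone. Eprs also missed it without replicates 1 and 2 of CD8 week 4 (0.0706). Lars is 1 of the 3 members whose call in CD8 cells was lost when single libraries were left out, with Shmt2 and Mthfd1l, and its adjusted p was 0.169 when replicates 1 and 2 of CD8 week 4 were left out. Sars and Wars did not pass the test, with log2 fold changes of -0.24 and -0.36.

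The members whose promoter window held TGATGNAA are set beside those without it as a description. All 11 tested members with the core fell in CD8 cells, with a median log2 fold change of -1.05, and the range ran from -4.06 (Pycr1) to -0.39 (Got1). Of the 25 tested members with a window but no core, 17 fell and the median was -0.51. Of all 44 tested members 33 fell, and of all genes 16.4% were called lower. Bcat1, Gpt2, Psat1 and Mthfd2 were among those without the core and fell by 2.50-fold or more. In CD4 cells 1 of the 11 with the core fell, Aars, and of the 25 without it 4 fell and 1 rose. Of all genes, 8.8% were called lower and 7.67% higher in CD4 cells. No window was used for Slc7a5, Cars, Nars, Lars and Vars, which fell in CD8 cells. The same holds for Slc1a5, Slc38a1 and Wars, which did not pass there.

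In CD4 T cells the same genes changed in few cases. Of 44 members, 5 fell at week 3 and 1 rose, with a median log2 fold change of -0.21, while 8.8% of all genes were called lower and 7.67% higher, with a median of 0.01. The 5 that fell, Phgdh, Mthfd2, Bcat1, Got2 and Aars, also fell in CD8 cells, where 33 of the 44 members fell. With most members lower in CD8 cells, such an overlap is not separate support. The CD8 and CD4 culture comparisons share no library but come from 1 fit. Sesn2 rose 1.39-fold. Without CD4 week 3 replicate 2, 10 members were called lower and 0 higher, with a median of -0.31. Without CD4 week 1 replicate 2, 5 were called lower and 1 higher, with a median of -0.10. Over all genes, 3650 were called in either direction without the former library and 1617 without the latter, against 2189 in the full data.

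Mthfd2 fell 1.54-fold in CD4 cells (adjusted p = 0.00796), with 72.8, 86.7, 71, 69.9 and 51.1 CPM at week 3 and 89.7, 121, 125, 105 and 101 CPM at week 1. The groups did not overlap, and the call held in every alternative in which it was computed. Bcat1 fell 9.95-fold (adjusted p = 0.00594), with 0.0893, 1.89, 0.0428, 0.182 and 0.169 CPM at week 3, against 1.99, 5.64, 5.3, 3.19 and 7.75 CPM at week 1. Replicate 2 held the only week 3 value above 0.182 CPM, and without it the log2 fold change was -5.24, against -3.31 with it. Aars fell 1.56-fold (adjusted p = 0.0138), with 70.5, 92.2, 62.8, 58 and 62.8 CPM at week 3 and 92.3, 157, 106, 86.1 and 96.7 CPM at week 1. The groups overlapped through week 3 replicate 2, and week 1 replicate 2 was the highest library. Phgdh fell 1.46-fold (adjusted p = 0.0298), with 75.8, 100.3, 70.5, 67.6 and 64 CPM at week 3 and 86.2, 98.5, 134, 104 and 129 CPM at week 1. Got2 fell 1.20-fold (adjusted p = 0.0398), with 92.4, 103, 87.3, 79.9 and 81.5 CPM at week 3 and 95.8, 108, 117, 102 and 109 CPM at week 1. In Phgdh and Got2 the groups overlapped, and each call was lost with several single libraries left out, reaching an adjusted p of 0.0837 for Phgdh without CD4 week 1 replicate 3.

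The rise of Sesn2 in CD4 cells was lost in 13 of 19 alternatives. Its libraries held 13.4, 21.7, 13.6, 11.2 and 13.4 CPM at week 3, against 9.54, 12.2, 9.95, 11.6 and 9.42 CPM at week 1 (log2 fold change 0.48, SE 0.16, adjusted p = 0.0472). Without CD4 week 3 replicate 2 the log2 fold change was 0.29 and the adjusted p 0.101. That replicate was the highest week 3 library, and the groups overlapped. Psat1 missed the threshold in CD4 cells (log2 fold change -0.77, adjusted p = 0.0559), with 63.5, 141, 59.2, 49.7 and 51.5 CPM at week 3 and 86, 119.7, 148, 115 and 153 CPM at week 1. Without CD4 week 3 replicate 2 it passed, at -1.15 (adjusted p = 0.000765). Atf4 (log2 fold change -0.19, adjusted p = 0.456), Asns (0.15, 0.806), Slc7a5 (-0.12, 0.686), Slc3a2 (0.09, 0.636), Trib3 (0.30, 0.576) and Ddit3 (-0.43, 0.356) did not pass in CD4 cells. Asns turned to -0.19 without CD4 week 3 replicate 2, its highest week 3 library at 26.5 CPM, where the others held 6.33 to 15.6 CPM. Atf4 had 111, 131, 88.7, 78.3 and 84.3 CPM at week 3 and 109, 166, 107, 90.5 and 88.4 CPM at week 1, overlapping throughout. Ddit3 held 42 CPM in CD4 week 1 replicate 2, where the remaining week 1 libraries had 10.2 to 19.9 CPM and the week 3 libraries 11.6 to 17.6 CPM, and without that library its log2 fold change turned to 0.10 (adjusted p = 0.792).

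Whether the culture change differed between the cell types was tested as an interaction, the CD8 log2 change minus the CD4 log2 change. Of 44 members, 1 was called lower, Slc7a5, and 0 higher, with 0.406% of all genes called lower and 0.248% higher. The median over the members was -0.43 and that over all genes 0.015. Slc7a5 fell more in CD8 than in CD4 cells by 1.20 on the log2 scale (SE 0.27, adjusted p = 0.0465). Its CD4 libraries held 89.4, 136, 81.4, 77.8 and 66.1 CPM at week 3 and 60.8, 109, 104, 99.9 and 117 CPM at week 1, which overlapped. The Slc7a5 call was lost in 21 of 31 alternatives, with adjusted p from 0.00357 to 0.234. Asns (-2.08, adjusted p = 0.0773), Pycr1 (-3.64, 0.0701), Gpt2 (-2.52, 0.103), Trib3 (-1.71, 0.122), Iars (-0.53, 0.109) and Mthfd2 (-0.70, 0.118) had differences of the same sign that missed the threshold. Without CD8 week 1 replicate 3, 12 members were called lower, and without CD4 week 3 replicate 2, 0 were. Over all genes, 317 and 99 were called in either direction in these settings, against 87 in the full data. For the other 32 members that fell in CD8 cells, the fall was not shown to differ from the change in CD4 cells.

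At week 1, CD8 cells held more of these transcripts than CD4 cells. Of 44 members, 26 were higher in CD8 than in CD4 cells and 1 was lower, with a median log2 difference of 0.43. Among all genes tested, 19.1% were called higher and 19% lower, with a median of -0.01. This comparison uses the same CD8 week 1 libraries as the CD8 culture comparison, so the values of both are set side by side and not counted as separate evidence. Higher in CD8 week 1 were 9 of 13 tRNA synthetases, 6 of 9 enzymes of amino acid metabolism, 4 of 8 ATF4 and stress genes, 3 of 5 one-carbon enzymes, 2 of 3 serine enzymes and 2 of 6 transporters. Within CD8 title range A, 16 members were higher and 1 lower, and within range B 22 and 1. Without CD8 week 1 replicate 3, 31 were higher and 1 lower. Over all genes, 3538 were called in range A, 4079 in range B and 6050 without that replicate, against 5064 in the full data.

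**Figure D4:**
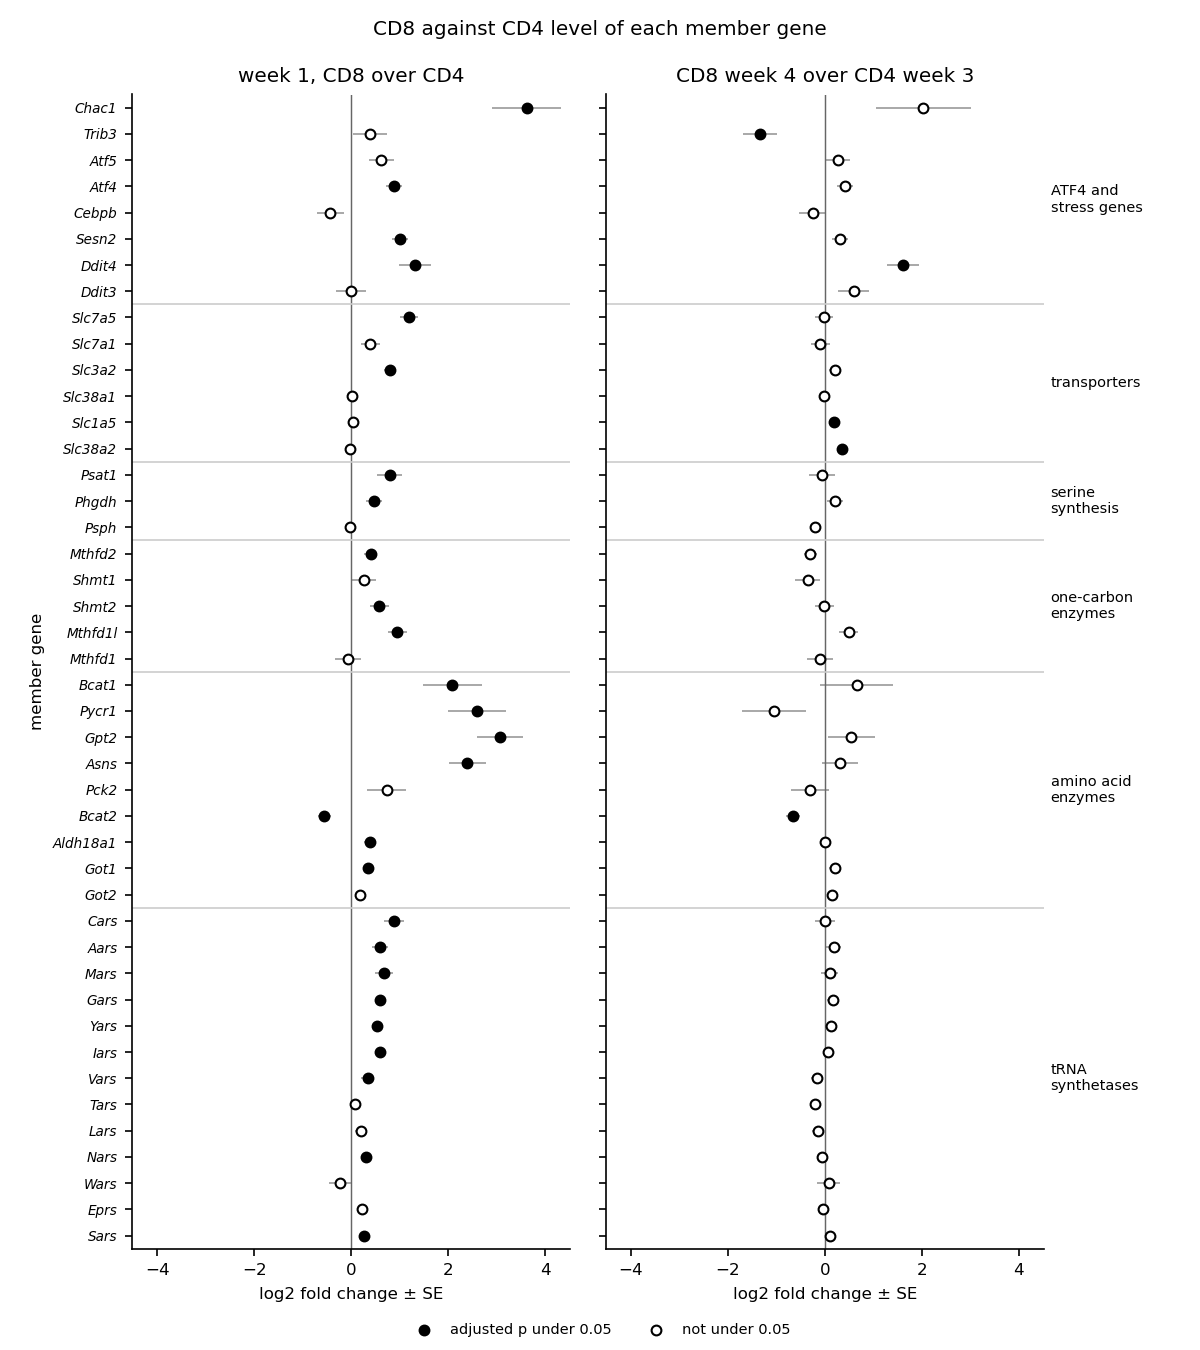
Log2 fold change ± SE of each tested member, CD8 over CD4, at week 1 on the left and in the late groups on the right (CD8 week 4 over CD4 week 3), with filled points where the adjusted p was under 0.05. At week 1, 26 filled points lie above 0 and 1 below, and late 3 lie above and 2 below.

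Asns averaged 68.4 ± 26.5 CPM in CD8 week 1 and 13 ± 6.57 CPM in CD4 week 1 libraries (SD, n = 5 each), a 5.26-fold difference (log2 2.40, SE 0.38, adjusted p = 0.000107). The 5 CD4 week 1 libraries held 10.3, 19.9, 8.25, 6.37 and 20.2 CPM, all below the lowest CD8 week 1 library at 28.5 CPM. Chac1 at 12.3-fold, Gpt2 at 8.39-fold, Pycr1 at 6.03-fold and Bcat1 at 4.25-fold had large differences at low levels. The size for Chac1 depends on 1 library, since its CD4 week 1 libraries held 2, 17, 0, 1 and 3 counts, and without replicate 2 the log2 difference was 5.21, against 3.62 with it. Bcat1 missed the threshold in range B alone (adjusted p = 0.0513). Slc7a5 was 2.28-fold higher in CD8 cells (adjusted p = 0.000126) and Slc3a2 1.74-fold (3.98e-05), with 169.6, 185, 109, 154 and 153 CPM in CD8 week 1 and 77.9, 111, 90.2, 80.5 and 83.5 CPM in CD4 week 1, where 1 library of each group overlapped. Sesn2, with 20.2, 24.7, 21.7, 19.6 and 19.6 CPM in CD8 week 1 and at most 12.2 CPM in CD4 week 1, was 2.01-fold higher. Atf4 was 1.85-fold higher (adjusted p = 0.000441), and its CD8 week 1 libraries lay above all CD4 week 1 libraries. Ddit4 was 2.50-fold higher, with 145, 189.5, 67.3, 85.6 and 113 CPM in CD4 week 1, and CD8 week 1 replicate 3, at 146 CPM, overlapped these. Bcat2 was the only member lower in CD8 week 1, by 1.47-fold, at 53 ± 8.52 CPM in CD8 cells and 77.8 ± 9.26 CPM in CD4 cells (adjusted p = 0.00364). Its 5 CD4 week 1 libraries held 85.6, 84.7, 64.8, 71.3 and 82.6 CPM, all above the CD8 week 1 libraries.

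In the late groups few members differed between the cell types. CD8 week 4 was higher than CD4 week 3 in 3 members and lower in 2, with a median log2 difference of 0.07, beside 17.7% of all genes called higher and 15% called lower. Ddit4 was 3.04-fold higher (adjusted p = 0.00113), with 73.8, 136, 105, 78.1 and 127 CPM in CD4 week 3. The CD8 week 4 libraries lay above these, from 177 to 504 CPM, although the log2 difference was 1.01 when replicates 1 and 2 of CD8 week 4 were left out, against 1.61 with them, and range B alone missed the threshold (adjusted p = 0.0617). The glutamine carriers Slc38a2 and Slc1a5 were 1.28- and 1.14-fold higher. Slc38a2 had 276, 273, 262, 309.8 and 296 CPM in CD8 week 4, against 183, 229, 224, 233 and 238 CPM in CD4 week 3 (adjusted p = 0.00259). Slc1a5 had 307, 329, 324, 314 and 315 CPM in CD8 week 4, against 267, 289, 284, 261 and 294 CPM in CD4 week 3 (adjusted p = 0.0151), and the call was lost in either title range alone and without replicates 1 and 2 of CD8 week 4. Trib3 was 2.52-fold lower, with 12.4, 15, 20.3, 20.6 and 36 CPM in CD4 week 3, all above the CD8 week 4 libraries (adjusted p = 0.0075, 0.0501 in range B alone). Bcat2 was 1.58-fold lower, with 54.5, 65.9, 51.7, 50.3 and 73.2 CPM in CD4 week 3 (adjusted p = 0.00117). Asns (log2 difference 0.31, adjusted p = 0.534), Slc7a5 (-0.01, 0.969), Psat1 (-0.06, 0.877), Cars (0.01, 0.971) and Bcat1 (0.66, 0.522), all higher in CD8 cells at week 1, did not pass the test late. Bcat1 depended on CD4 week 3 replicate 2, and without that library it was higher in CD8 week 4 by 2.57 on the log2 scale (adjusted p = 0.007), while in range B alone the difference was -0.58 (adjusted p = 0.792). The late differences of Slc7a5, Psat1 and Cars lay near 0 and changed sign between alternatives. Without CD4 week 3 replicate 2, 8 members were called higher and 2 lower. Over all genes, 5435 were called in either direction in that setting, against 4342 in the full data.

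The libraries of a group were uneven in these genes, and proliferation markers are given beside them. The median over the 44 members of log2(CPM + 0.5) minus the gene's mean over 20 libraries was -0.27, -0.26, -0.10, -0.15 and -0.10 in CD8 week 4, against 0.55, 0.62, 0.06, 0.48 and 0.51 in CD8 week 1. It was -0.23, 0.01, -0.23, -0.35 and -0.31 in CD4 week 3, against -0.25, 0.08, -0.04, -0.11 and 0.10 in CD4 week 1. CD8 week 1 replicate 3 was therefore the lowest of its group and CD4 week 3 replicate 2 the highest of its own. The summed CPM of 17 proliferation markers, among them Mki67, Top2a and Pcna, was 2325, 2329, 2598, 1894 and 1891 in CD8 week 4, against 7654, 6839, 3321, 7563 and 7571 in CD8 week 1. It was 1411, 3817, 786, 669.7 and 726.5 in CD4 week 3, against 2607, 4308, 5258, 3590 and 4611 in CD4 week 1. The same 2 libraries stood apart from their groups in both measures, and the order of the other libraries was shared in part. CD4 week 3 replicates 4 and 5 had the fewest markers and the lowest medians of their group, and so had CD4 week 1 replicate 1. CD8 week 4 replicates 1 and 2 had the lowest member medians of their group without the fewest markers. CD4 week 1 replicate 3 had the most markers of its group without the highest median. All 17 proliferation markers fell in CD8 cells and 9 of 17 in CD4 cells. The part of proliferation in the changes of the members was not tested, and in bulk RNA fewer cells of a type and less RNA per cell cannot be told apart.

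**Figure D5:**
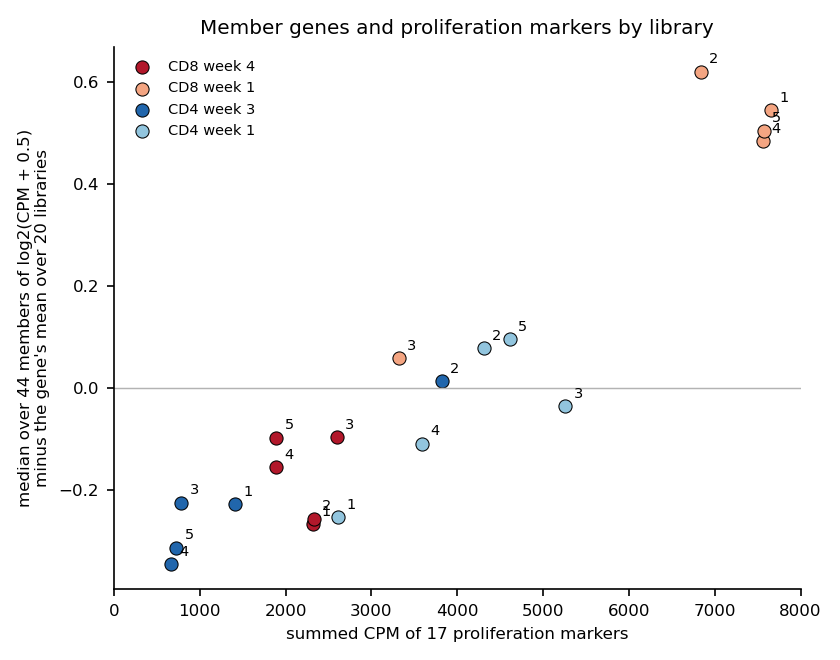
Median over 44 members of log2(CPM + 0.5) minus the gene's mean over 20 libraries (vertical axis) against the summed CPM of 17 proliferation markers (horizontal axis), with each library marked by its replicate number. CD8 week 1 replicates 1, 2, 4 and 5 lie at 0.48 or more with 6839 to 7654 CPM of markers, and replicate 3 at 0.06 with 3321 CPM.

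Other genes of these pathways were counted in lists outside the 46. Against the shares over all genes (17.1% higher and 16.4% lower in CD8 cells, 7.67% and 8.8% in CD4 cells), most of these counts lie near the background and are not results about the lists. Of 10 other cytosolic tRNA synthetases and cofactors, 1 fell in CD8 cells, Dars, the aspartate enzyme, by 0.26 in log2 terms (adjusted p = 0.043, lost when any of 7 single libraries was left out), and 0 changed in CD4 cells. Of 17 mitochondrial tRNA synthetases, 4 rose and 1 fell in CD8 cells and 1 rose in CD4 cells. Wars2, the tryptophan enzyme of mitochondria, rose in CD8 cells (20.9 ± 1.22 CPM at week 4 and 14 ± 0.675 CPM at week 1) and in CD4 cells (16.9 ± 1.36 CPM at week 3 and 12.4 ± 0.734 CPM at week 1), and Hars2, the histidine enzyme, rose in CD8 cells by 0.36 on the log2 scale. Of 14 genes of eIF2 kinases, eIF2B and eIF2 phosphatase, 4 rose and 3 fell in CD8 cells and 1 rose and 1 fell in CD4 cells. Impact, an inhibitor of the eIF2 kinase GCN2, rose 1.80-fold in CD8 cells (40.9 ± 4.29 CPM at week 4 and 22.7 ± 4.36 CPM at week 1, adjusted p = 0.000458) and 2.19-fold in CD4 cells (68.9 ± 12.7 CPM at week 3 and 31.4 ± 4.33 CPM at week 1, adjusted p = 0.00013).

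Of 20 genes of mTORC1 and its amino acid sensors, 4 rose and 3 fell in CD8 cells, and 1 rose and 2 fell in CD4 cells. Rptor, a subunit of mTORC1, rose in CD8 cells to 113 ± 12.2 CPM at week 4, against 70.7 ± 3.12 CPM at week 1, and Sesn1, a relative of Sesn2, to 96.3 ± 12.2 CPM against 56.6 ± 9.51 CPM. Of 17 other amino acid transporters, 2 rose and 7 fell in CD8 cells, and 1 rose and 3 fell in CD4 cells. Slc36a1, a lysosomal carrier of small amino acids, rose 1.67-fold in CD8 and 1.39-fold in CD4 cells. Of 17 other folate, glycine and methionine enzymes, 3 rose and 3 fell in CD8 cells and 3 fell in CD4 cells. Ahcy, which hydrolyses S-adenosylhomocysteine, fell 1.88-fold in CD8 cells, and Tyms, thymidylate synthase, also used as a marker of dividing cells, fell 3.36-fold in CD4 cells. Of 18 other enzymes of glutamine, glutamate, proline and branched-chain amino acids, 4 rose and 4 fell in CD8 cells and 2 rose in CD4 cells. Bckdha, of the complex that degrades branched-chain keto acids, rose 1.40-fold in CD8 cells, and Aldh4a1, which degrades proline, 1.41-fold in CD8 and 1.33-fold in CD4 cells.

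Of 22 other ATF4 and stress response genes, 7 rose and 6 fell in CD8 cells and 2 rose and 3 fell in CD4 cells. Cebpg, a C/EBP factor that pairs with ATF4, fell 1.48-fold in CD8 cells (42.4 ± 3.89 CPM at week 4 and 62.7 ± 6.59 CPM at week 1) and 1.33-fold in CD4 cells (42.6 ± 5.99 CPM at week 3 and 56.7 ± 10.3 CPM at week 1). Dnajb9, a chaperone of the endoplasmic reticulum, rose 1.62-fold in CD8 cells, and Stc2, a secreted glycoprotein, rose in CD8 cells (135 ± 28.4 CPM at week 4 and 64.6 ± 16.2 CPM at week 1, adjusted p = 0.00448) and 2.27-fold in CD4 cells. Of 9 genes of the Myc family, 2 rose and 1 fell in CD8 cells and 1 rose and 2 fell in CD4 cells. Mxd4, a Myc antagonist, rose 2.75-fold in CD8 and 1.56-fold in CD4 cells. Myc itself, named after its values were seen, had 365 ± 66.1 CPM in CD8 week 4 and 363 ± 162 CPM in CD8 week 1 (log2 fold change 0.01, adjusted p = 0.984).

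Levels were compared between genes only after division by exon length, as CPM per kb. In CD8 week 4 Ddit4 was highest (188 ± 88.7), followed by Vars (78 ± 4.72), Atf4 (76.5 ± 7.5) and Slc1a5 (76.2 ± 2.06), and the last 3 differed by less than their spread. In CD8 week 1 the order was Ddit4 (178 ± 51.9), Atf4 (120.4 ± 17.4), Vars (108 ± 21.6) and Shmt2 (84.4 ± 23.3 CPM per kb; SD, n = 5 each), with overlapping spreads from Atf4 to Vars. In CD4 week 3 Vars was highest (87.1 ± 6.36), and in CD4 week 1 too (85.7 ± 14.1), ahead of Ddit4 (71.2 ± 28.9 CPM per kb). For Asns the level was 6.55 ± 0.684 CPM per kb in CD8 week 4 and 25 ± 9.71 in CD8 week 1, while CD4 week 3 had 5.27 ± 2.76 and CD4 week 1 had 4.75 ± 2.4. Bcat1, Chac1, Pycr1 and Gpt2 were between 1.43 and 2.18 CPM per kb in CD8 week 1 and at or under 0.512 in the other 3 groups.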

How the data were processed

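Poly(A) RNA libraries of 20 sorted T cell samples were counted by the authors. The deposited values are whole read counts per gene, made with featureCounts 1.6.3 on GENCODE M12 exons (GRCm38) with strand option 2, per the file headers, after STAR alignment to mm10, per the submitters' processing notes. No option for multi-mapping reads stands in the header, so genes with near-identical copies may be undercounted. The deposited exon length per gene, another column, was used only for levels per kb.

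Groups came from the labels, with 5 libraries each. All 20 libraries entered 1 fit of 4 group means in edgeR 4.0.16 (R 4.3.3): filterByExpr, TMM scaling, glmQLFit and glmQLFTest, two-sided, with Benjamini-Hochberg adjustment over 13290 genes and a threshold of 0.05. Standard errors (SE) were derived from each fold change and its F statistic. CPM values of the members and of the other lists use TMM library sizes. Those of cell type markers and the summed proliferation markers use library totals. The script was tested on simulated counts. No 2 libraries agreed within counting noise (chi-square per degree of freedom 5.90 to 141 over 40 replicate pairs). Title range A holds 6 and range B 4 of the CD8 libraries, by the numbers in the sample titles, and range C all CD4 libraries.

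The 46 genes and the other lists were chosen with earlier results of these data known. All members could be named. Every library is given for, in each culture comparison, the 8 or fewer called members of lowest adjusted p with at least 10 CPM in the higher group, 5 or fewer in each other comparison, and a set of always-shown genes. Other lists name the up to 2 called genes of smallest adjusted p, and Stc2 in CD8 cells was added after its values were seen. Alternatives were RLE, upper-quartile and no scaling factors, DESeq2, limma-voom 3.58.1, other filters, only the groups compared, title range as a term or alone, and each library left out.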

Additional observations from a re-analysis of the deposited data

Results flagged for a closer look

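Library by library, 20 members were checked in each of the 4 groups, which gave 80 sets of 5 values. The other members were not checked. Of the 80 sets, 18 held a library far from its 4 fellows. Chance alone gives about 1 in 20 where sets are independent. Sets that share a library are not independent, so the 18 cannot be judged against that share. CD8 week 1 replicate 3 was low in 7 of the 20 members checked. It held 168.8 CPM of Slc7a5 (others 229 to 245), 111.8 CPM of Psat1 (233 to 248), 36.5 CPM of Cars (63.3 to 71.2) and 110.1 CPM of Iars (165 to 175). It also held 145.7 CPM of Ddit4 (319 to 352), 38.0 CPM of Bcat2 (54.7 to 58.8) and 269 CPM of Slc1a5 (294 to 301).

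CD4 week 3 replicate 2 was high in 6 of the 20 members checked. It held 1.89 CPM of Bcat1 (others 0.0428 to 0.182), 165 CPM of Gars (119 to 132), 141 CPM of Psat1 (49.7 to 63.5), 35.1 CPM of Cars (21.9 to 25.0), 21.7 CPM of Sesn2 (11.2 to 13.6) and 127.5 CPM of Iars (99.0 to 105). CD4 week 1 replicate 2 was high in Aars at 157 CPM (86.1 to 106), in Cars at 56.5 CPM (25.8 to 29.4) and in Atf4 at 166 CPM (88.4 to 109). Slc3a2 was low in CD8 week 4 replicate 4, at 101 CPM (109 to 111), and Slc38a2 in CD4 week 3 replicate 1, at 183 CPM (224 to 238).

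The culture change of Slc7a5 differed between the cell types by -1.20 on the log2 scale, CD8 minus CD4, in the test of the interaction itself.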

How the results depend on the processing

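The number of members called in CD8 cells, 33, was 14 in title range A alone, 20 in range B alone and 30 to 34 with single libraries left out. In CD4 cells it was 6, and 3 with only the groups compared, 11 with DESeq2 and 3 to 10 with single libraries left out. The calls over all genes in CD4 cells moved too, from 2189 to 1150 with only the groups compared and 2834 with DESeq2. For CD8 against CD4 at week 1 it was 27, and 17 in range A alone and 20 to 32 with single libraries left out. For the late groups it was 5, and 2 in range B alone, 8 with limma-voom and 4 to 10 with single libraries left out. For the interaction it was 1, and 0 with library totals, with no filter, in range A alone, in range B alone and with limma-voom, 8 with DESeq2 and 0 to 12 with single libraries left out. With single libraries left out, log2 values that never passed in the full data changed sign for Ddit3 in CD4 cells (-0.58 to 0.10), Asns in CD4 cells (-0.19 to 0.36), Ddit4 in CD8 cells (-0.16 to 0.23), Myc in CD8 cells (-0.082 to 0.33), and, between the late groups, Slc7a5 (-0.10 to 0.18), Psat1 (-0.17 to 0.32) and Cars (-0.044 to 0.14). In range B alone Ddit4 was -0.66, Cebpb 0.060 and, late, Slc7a5 0.15, Bcat1 -0.58 and Cars -0.011. Without replicates 1 and 2 of CD8 week 4, Ddit4 was -0.52, Ddit3 -0.007 and, late, Slc7a5 0.17, Psat1 0.040 and Bcat1 -0.10. With limma-voom late Slc7a5 was 0.012 and Psat1 0.043. With only the groups compared Cars was -0.007 late and Myc -0.004, and Myc was also -0.006 with RLE factors, -0.028 with library totals, -0.37 in range A alone and -0.007 with DESeq2. Title ranges alone hold fewer samples; the other causes were not tested. Over 133 gene results and 2834 values under alternatives, 2511 kept their direction and side of the threshold, 261 lost the call, 24 gained it and 38 changed sign, none of them in a called gene. No paired analysis was possible because the labels give no replicate numbers shared between groups. Depth limits Chac1, Pycr1, Gpt2 and Bcat1 in the late groups, where levels were near 0.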
